A study of Homo sapiens with 5 samples.

Results

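Tight junction genes were followed in Ishikawa cells, a line established from a human endometrial carcinoma, through 6 claudins (CLDN1, CLDN3, CLDN4, CLDN6, CLDN7 and CLDN12), occludin (OCLN) and the scaffold genes TJP1 and TJP3. These 9 genes were taken by symbol from the deposited table of 58174 genes, and each symbol named 1 row. RNA sequencing compared 3 libraries of cells given, by lentivirus, a short hairpin RNA against LINC00958, a long non-coding RNA (sh-LINC00958), with 2 libraries of cells carrying a negative control (sh-NC). All 5 libraries came from cells grown in the same serum-containing medium and selected with puromycin at 2.5 µg/ml from 72 h after infection. The labels do not give the number or sequences of the hairpins, whether the selected cells were a pool or a clone, or the time of harvest. They also do not say that the libraries of a group were separate cultures, so p-values reflect only how these samples differ from each other, and that may be technical.

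Tight junctions seal the space between neighbouring epithelial cells near their apical edge. Claudins are small membrane proteins with 4 membrane-spanning segments that polymerise into strands, and the mix of claudins in a cell sets how tight the seal is and which ions cross it. Occludin lies in the same strands, and zonula occludens proteins (ZO-1 from TJP1, ZO-3 from TJP3) bind the tails of most claudins from inside the cell and tie them to actin. In endometrial epithelium and its carcinomas CLDN3 and CLDN4 are among the claudins most often studied, in part because both proteins bind the enterotoxin of Clostridium perfringens.

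Values are TPM, a transcript level scaled for gene length and for the total of its library, so levels of different genes can be set side by side. The libraries were epithelial by their markers. EPCAM, KRT8, KRT18, KRT19 and CDH1 summed to 1618, 1673 and 1808 TPM in sh-LINC00958 libraries and 1536 and 1547 TPM in sh-NC libraries. Of 5 endometrial genes PAX8 and SOX17 were present and FOXA2 was listed at 0 in every library. ESR1 and PGR were close to absent, at no more than 0.0149 and 0.0264 TPM in any library. Sums of 7 fibroblast genes were 5.58 to 6.18 TPM in sh-LINC00958 and 5.28 to 5.36 TPM in sh-NC. Those of 6 blood cell genes were 0.494 to 0.662 TPM in sh-LINC00958 and 0.697 to 0.839 TPM in sh-NC, and those of 5 endothelial genes 4.39 to 5.89 TPM in sh-LINC00958 and 6.51 to 6.90 TPM in sh-NC. DCN, CD3E, HBB and KDR among them were listed at 0 throughout. COL1A1 (4.81 TPM), CDH5 (2.64), PECAM1 (1.92) and VWF (1.07) had means of at least 1 TPM over the 5 libraries. CDH5 averaged 1.97 TPM in sh-LINC00958 against 3.64 TPM in sh-NC and did not pass (limma adjusted p = 0.0651). The part of these sums in the results was not tested. LINC00958 itself averaged 64.2 ± 5.05 TPM in sh-LINC00958 (SD, n = 3) against 128.4 ± 12.8 TPM in sh-NC (SD, n = 2), which is 50.04% of the control level (log2 fold change -0.99, limma adjusted p = 0.0119). That LINC00958 call was lost without sh-LINC00958 replicate 1 (adjusted p = 0.0545), sh-NC replicate 1 (0.0677) or sh-NC replicate 2 (0.0871), with log2 fold changes of -1.02, -1.09 and -0.89. The labels name no batch.

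CLDN7 had the highest level of the 9 genes in both groups, and CLDN6 was barely detected in either. In sh-LINC00958 libraries CLDN7 averaged 137 TPM, CLDN3 50.3, TJP1 49.9, CLDN1 45.8, CLDN12 32.7, OCLN 31.7, TJP3 26.6, CLDN4 3.35 and CLDN6 0.0980 TPM. In sh-NC, mean levels ran in the order CLDN7 at 96.8 TPM, TJP1 at 53.1, CLDN1 at 51.5, CLDN3 at 42.6, OCLN at 30.4, CLDN4 at 28.8, CLDN12 at 26.5, TJP3 at 21.8 and CLDN6 at 0.246 TPM. The main difference between these orders is CLDN4. Its sh-NC libraries overlapped the ranges of CLDN3, OCLN, CLDN12 and TJP3, while in sh-LINC00958 its highest library lay below the lowest TJP3 library. Neighbours whose ranges overlapped, so that their order is not resolved, were CLDN3, TJP1 and CLDN1, and CLDN12, OCLN and TJP3, in sh-LINC00958. In sh-NC they were TJP1 and CLDN1, and OCLN, CLDN4, CLDN12 and TJP3. CLDN4, at 12.8 and 44.79 TPM in sh-NC, also spanned CLDN3 (40.6 and 44.51 TPM), so the order of CLDN3 and CLDN4 there is not resolved either.

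**Figure D1:**
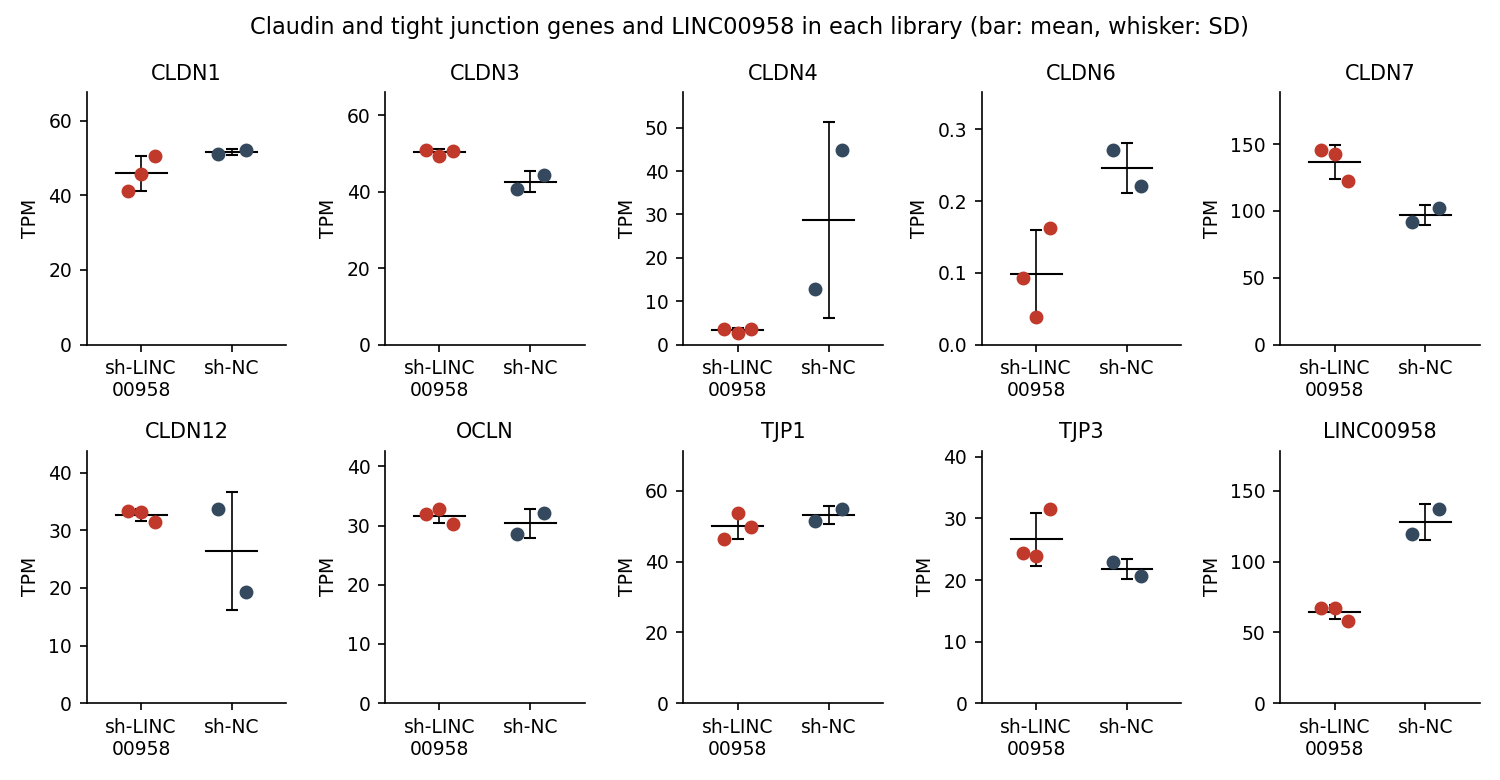
TPM (vertical axis, linear, from 0) of the 9 junction genes and LINC00958 in each sh-LINC00958 library (red) and sh-NC library (dark blue), with the mean (bar) and SD (whisker, n = 3 and 2). CLDN4 lies between 2.76 and 3.67 TPM in sh-LINC00958 and at 12.8 and 44.8 TPM in sh-NC, and CLDN7 lies higher in every sh-LINC00958 library than in either sh-NC library.

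Differences were fitted for all 17049 genes with a mean of at least 1 TPM over the 5 libraries, using limma on log2(TPM + 1) with Benjamini-Hochberg adjustment over all of them and a threshold of 0.05. Fold changes are sh-LINC00958 minus sh-NC on that log2 scale, where the changes of low genes come out too small. Of the 9 genes, 8 passed the filter and CLDN6 did not. Among the 8, CLDN7 rose, CLDN4 fell, and 6 did not pass the threshold. At an unadjusted p under 0.05 there were 3 of the 8, with CLDN3 the third, against 30.7% of all genes tested. Over all genes tested 4.12% were called higher and 5.68% lower, 9.8% in either direction, so 2 calls among 8 genes are few to set against that background. The median log2 fold change was 0.15 over the 8 genes and 0.0014 over all genes tested. In 5 of the 8 the libraries of the groups did not overlap, which was also true of 49.9% of all genes tested.

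CLDN4, a barrier-forming claudin of many epithelia, showed the widest separation between groups. Its level was 3.61, 2.76 and 3.67 TPM in sh-LINC00958 and 12.8 and 44.8 TPM in sh-NC. The 3 sh-LINC00958 libraries were close together, and the lower sh-NC library was still 3.49 times the highest of them. The mean was 3.35 ± 0.509 TPM in sh-LINC00958 (SD, n = 3) against 28.8 ± 22.6 TPM in sh-NC (SD, n = 2), or 11.6% of the control level, and the log2 fold change was -2.54 ± 0.480 (SE, 95% interval -3.72 to -1.36, limma adjusted p = 0.0335). In bulk RNA, fewer cells carrying a transcript and less of it per cell cannot be told apart.

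The size of the CLDN4 difference rested on the control libraries, which differed from each other by 3.50 times. That gap, 1.73 on the log2 scale, was wider than in 99.5% of all genes tested and in 99.3% of the 2875 genes whose mean level was within 1.5 times that of CLDN4. Without sh-NC replicate 2, the higher one, the CLDN4 log2 fold change was -1.68 (limma adjusted p = 0.0761), and without sh-NC replicate 1 it was -3.40 (adjusted p = 0.0264). The call was also lost without sh-LINC00958 replicate 1, 2 or 3 (CLDN4 adjusted p = 0.107, 0.0622 and 0.0826), with log2 fold changes between -2.44 and -2.59.

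CLDN4 lies on the plus strand of chromosome 7 (ENSG00000189143, GRCh38 chr7:73799542-73832693 in GENCODE release 29), and CLDN3, a close relative in sequence and function, lies on the minus strand nearby (ENSG00000165215, chr7:73768997-73770270). Their RefSeq start sites are 60.7 kb apart and point away from each other. The promoter windows of both genes are shown because these neighbours differed in how they behaved, together with that of CLDN7, the claudin that rose. Each holds 250 bases before and 50 after the start site (RefSeq, GRCh38.p14), 5′ to 3′ on the strand of the gene, at chr7:73830746-73831045 for CLDN4 (plus strand), chr7:73770221-73770520 for CLDN3 (minus strand) and chr17:7262429-7262728 for CLDN7 (minus strand, the downstream one of 2 RefSeq windows). Capitals mark matches to the motifs described after them.
CLDN4: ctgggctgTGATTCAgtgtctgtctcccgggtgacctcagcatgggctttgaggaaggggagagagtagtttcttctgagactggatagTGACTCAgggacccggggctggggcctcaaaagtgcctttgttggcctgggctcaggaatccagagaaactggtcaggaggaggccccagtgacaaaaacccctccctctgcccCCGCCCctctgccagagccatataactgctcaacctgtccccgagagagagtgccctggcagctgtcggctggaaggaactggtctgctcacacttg
CLDN3: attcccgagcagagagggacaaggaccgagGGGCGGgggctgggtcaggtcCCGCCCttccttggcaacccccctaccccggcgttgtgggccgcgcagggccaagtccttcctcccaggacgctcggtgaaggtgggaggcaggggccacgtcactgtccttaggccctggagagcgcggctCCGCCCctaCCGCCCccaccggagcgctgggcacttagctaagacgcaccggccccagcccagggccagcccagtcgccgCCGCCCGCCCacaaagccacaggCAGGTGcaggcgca
CLDN7: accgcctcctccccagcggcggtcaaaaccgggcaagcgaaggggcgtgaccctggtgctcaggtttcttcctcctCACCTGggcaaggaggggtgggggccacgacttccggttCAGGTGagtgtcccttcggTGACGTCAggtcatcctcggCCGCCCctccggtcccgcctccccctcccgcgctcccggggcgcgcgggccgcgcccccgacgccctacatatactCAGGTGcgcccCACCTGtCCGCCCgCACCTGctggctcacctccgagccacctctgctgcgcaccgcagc

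The windows were searched on both strands for 7 motifs: TGANTCA (a looser form of the AP-1 site, which has C or G at N), CAGGTG (an E-box bound by the ZEB and Snail repressors of epithelial genes), GGGCGG (SP1), AACCNGTT (grainyhead-like factors), TGACGTCA (cyclic AMP response element), GGAATG (TEAD) and TATAAA (a core promoter element). CLDN4 held 2 matches to TGANTCA and 1 to GGGCGG. The TGANTCA matches were TGATTCA and TGACTCA, and only TGACTCA has the C or G of the AP-1 site. The looser TGANTCA was found at least once in 7.71% and at least 2 times in 0.515% of 35116 human promoter windows of this length. CLDN3 held 6 matches to GGGCGG, of which the last 2 overlap each other, a number reached in 2.86% of all windows, and 1 to CAGGTG. CLDN7 held 5 matches to CAGGTG, a number reached in 0.094% of all windows, with 2 to GGGCGG and 1 to TGACGTCA, while its other RefSeq window (chr17:7263164-7263463) held none. At least 1 match was found in 20.6% of windows for CAGGTG, 45% for GGGCGG, 1.85% for TGACGTCA, 1.73% for AACCNGTT, 14% for GGAATG and 11.5% for TATAAA, and these 3 windows held none of the last 3 motifs. GC content was 59% in the CLDN4 window, with 5 CG dinucleotides, 72% in that of CLDN3, with 24, and 71.7% in that of CLDN7, with 30, against medians of 58.7% and 14 over all windows. The counts of 2, 6 and 5 are the highest of their motifs among the 15 windows of the 9 genes, so their shares describe picked extremes. CAGGTG was also matched in windows of CLDN6, OCLN, TJP1 and TJP3, and TGACGTCA in that of CLDN6. A match describes letters only.

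CLDN3 measured 50.8, 49.4 and 50.7 TPM in sh-LINC00958 and 40.6 and 44.5 TPM in sh-NC. All 3 sh-LINC00958 libraries were higher than both sh-NC libraries, opposite to CLDN4. The log2 fold change was 0.24 ± 0.0837 (SE, 95% interval 0.03 to 0.44) and did not pass (limma adjusted p = 0.124). Of 12 listed genes around the pair on chromosome 7, 10 were tested, 1 rose, 0 fell in limma and 9 did not pass. At an unadjusted p under 0.05 there were 4, all higher and 0 lower, against 30.7% of all genes tested in either direction. With 4.12% of all genes called higher and 5.68% lower, a list of this size is too short to read a pattern from. LIMK1, a kinase that acts on cofilin and so on actin, rose to 73.9 ± 5.58 TPM in sh-LINC00958 (SD, n = 3) against 37.5 ± 0.731 TPM in sh-NC (SD, n = 2), with a log2 fold change of 0.96 (limma adjusted p = 0.0092). The other log2 fold changes were 0.42 for DNAJC30, 0.41 for STX1A, 0.20 for RFC2, 0.16 for ABHD11, 0.09 for VPS37D, 0.07 for EIF4H, 0.01 for BUD23, -0.10 for LAT2 and -0.25 for ELN. METTL27, between 0.81 and 1.19 TPM in every library, was below the filter, and TMEM270 was listed at 0.

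CLDN7, an epithelial claudin that also binds the adhesion protein EpCAM, rose in sh-LINC00958. It measured 145, 143 and 122 TPM in sh-LINC00958 and 91.4 and 102 TPM in sh-NC. The groups did not overlap, with sh-LINC00958 replicate 3 the lowest of its group at 1.20 times the higher sh-NC library. The log2 fold change was 0.49 ± 0.107 (SE, 95% interval 0.23 to 0.75, limma adjusted p = 0.0441). That call was close to the threshold and was lost on leaving out any one of the 5 libraries, with CLDN7 log2 fold changes from 0.41 to 0.57 and adjusted p-values from 0.0576 to 0.195. The gene lies on the minus strand of chromosome 17 (ENSG00000181885, chr17:7259903-7263983). Its exons share 10.8% of their length with AC003688.1 on the same strand (at most 2.68 TPM in any library) and 1.52% with ELP5 on the opposite strand, so a few of its reads may be ambiguous. EPCAM, whose protein holds claudins at the membrane, measured 401, 436 and 400 TPM in sh-LINC00958 against 504 and 492 TPM in sh-NC, lower in every sh-LINC00958 library, and did not pass (log2 fold change -0.27, limma adjusted p = 0.0660).

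**Figure D2:**
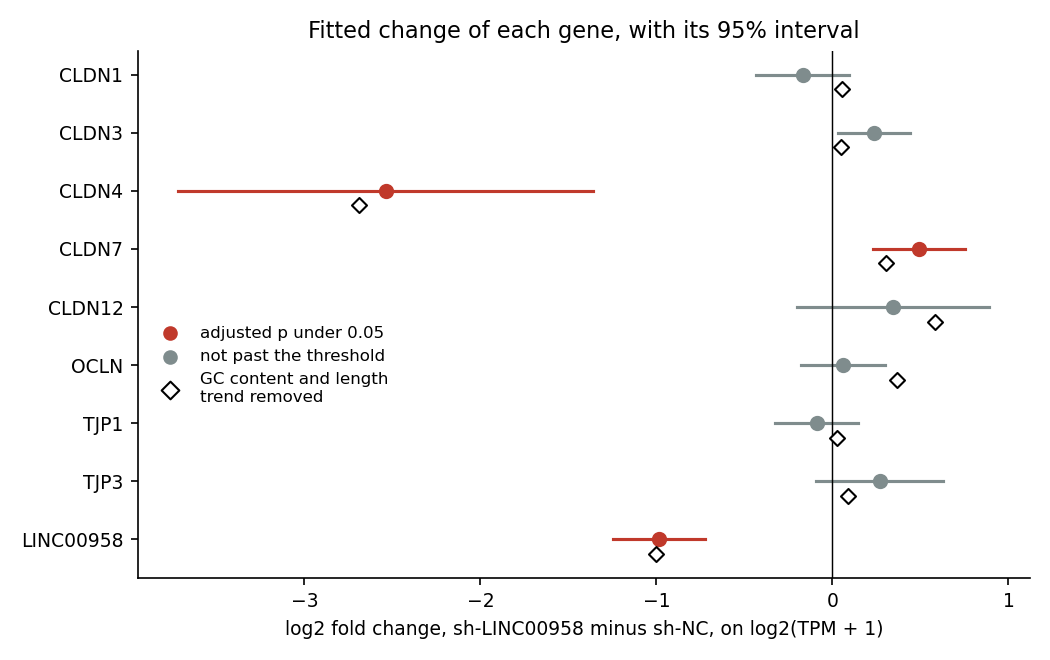
Log2 fold change of each tested gene (horizontal axis, sh-LINC00958 minus sh-NC on log2(TPM + 1)) with its 95% interval, in red where the limma adjusted p was under 0.05; open diamonds give the value after the trend of GC content and length was removed. CLDN4 stands at -2.54 with the widest interval, and the other 7 junction genes lie between -0.17 and 0.49.

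Of the other claudins, CLDN1, which forms the barrier of the epidermis, measured 41.2, 45.7 and 50.6 TPM in sh-LINC00958 and 50.9 and 52.0 TPM in sh-NC. Each sh-LINC00958 library was lower, but replicate 3 by under 1%, since the ratio of the nearest libraries was 1.01, and the log2 fold change, -0.17 with a 95% interval from -0.43 to 0.09, did not pass (limma adjusted p = 0.340). CLDN12, which lacks the tail motif through which other claudins bind ZO proteins, measured 33.3, 33.2 and 31.5 TPM in sh-LINC00958 and 33.7 and 19.2 TPM in sh-NC. Its groups overlapped, with sh-NC replicate 2 alone low. The log2 fold change of CLDN12 was 0.34 (95% interval -0.20 to 0.89, limma adjusted p = 0.349) and -0.046 without that library. CLDN12 shares 5.15% of its exon sequence with GTPBP10 and 2.98% with CDK14, both on its own strand, so some of its reads may be ambiguous. GTPBP10 measured 6.59, 9.71 and 8.18 TPM in sh-LINC00958 and 20.9 and 12.1 TPM in sh-NC. CDK14 lay the other way, at 12.1, 12.97 and 10.2 TPM in sh-LINC00958 and 3.95 and 4.34 TPM in sh-NC, and the part of either in the CLDN12 values was not tested. CLDN6, a claudin of embryonic epithelium and some carcinomas, measured 0.0932, 0.0385 and 0.162 TPM in sh-LINC00958 and 0.271 and 0.221 TPM in sh-NC. These levels are too low for the test, and no fold is drawn from them. Its exons overlap those of TNFRSF12A on the opposite strand by 40 bases, and the strand setting is not given in the sources used here. CLDN1 lies at chr3:190305701-190322475 (minus strand), CLDN12 at chr7:90383721-90513402 (plus) and CLDN6 at chr16:3014712-3020071 (minus).

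Occludin and the ZO scaffolds did not pass the threshold. OCLN measured 31.9, 32.8 and 30.3 TPM in sh-LINC00958 and 28.6 and 32.1 TPM in sh-NC. The groups overlapped, and the log2 fold change was 0.06 (95% interval -0.18 to 0.30, limma adjusted p = 0.713). RefSeq lists a transcribed pseudogene, OCLNP1, on chromosome 5 with OCLN, so reads may be split between them and the OCLN level is uncertain. Pseudogenes of CLDN7 (CLDN7P1, chromosome X) and TJP1 (TJP1P1, chromosome 16) are listed too. No row was found for any of these copies, and their part in the values was not tested. TJP1 measured 46.4, 53.6 and 49.7 TPM in sh-LINC00958 and 51.3 and 54.9 TPM in sh-NC. These values overlapped too, with a TJP1 log2 fold change of -0.09 (95% interval from -0.32 to 0.14; adjusted p = 0.565 in limma). TJP3 measured 24.5, 23.8 and 31.6 TPM in sh-LINC00958 and 22.95 and 20.6 TPM in sh-NC. Every sh-LINC00958 library of TJP3 was higher, replicate 3 more than the others, and the log2 fold change, 0.27 with a 95% interval from -0.09 to 0.63, did not pass (limma adjusted p = 0.275). The intervals leave room for changes of up to 0.30, 0.32 and 0.63 on the log2 scale in OCLN, TJP1 and TJP3, so these genes are not shown to be unchanged. OCLN lies at chr5:69492292-69558104 (plus strand), TJP1 at chr15:29699367-29968865 (minus) and TJP3 at chr19:3708109-3750813 (plus).

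Summed over the 6 claudins, the level differed little between groups while the mix differed more. The sum was 274, 274 and 259 TPM in sh-LINC00958 and 230 and 263 TPM in sh-NC, a mean of 269 ± 8.79 TPM in sh-LINC00958 (SD, n = 3) against 246 ± 23.5 TPM in sh-NC (SD, n = 2). The groups overlapped, and the difference of 22.6 TPM was 6.04 TPM without sh-NC replicate 1 and 39.2 TPM without sh-NC replicate 2. CLDN7 made up 53.0%, 52.1% and 47.2% of the sum in sh-LINC00958 and 39.8% and 38.9% in sh-NC. CLDN4 made up 1.32%, 1.01% and 1.42% in sh-LINC00958 against 5.58% and 17.0% in sh-NC, the higher sh-NC share being that of replicate 2. In sh-LINC00958 CLDN1 held 15.03% to 19.6%, CLDN3 18.1% to 19.6% and CLDN12 12.1% to 12.2%, and in sh-NC they held 19.8% and 22.2%, 16.9% and 17.7%, and 7.32% and 14.7%. Shares of one sum depend on each other, and no test was made. The 6 genes held 91.2% to 93.4% of the TPM of all listed claudins in sh-LINC00958 and 88.1% to 89.7% in sh-NC.

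**Figure D3:**
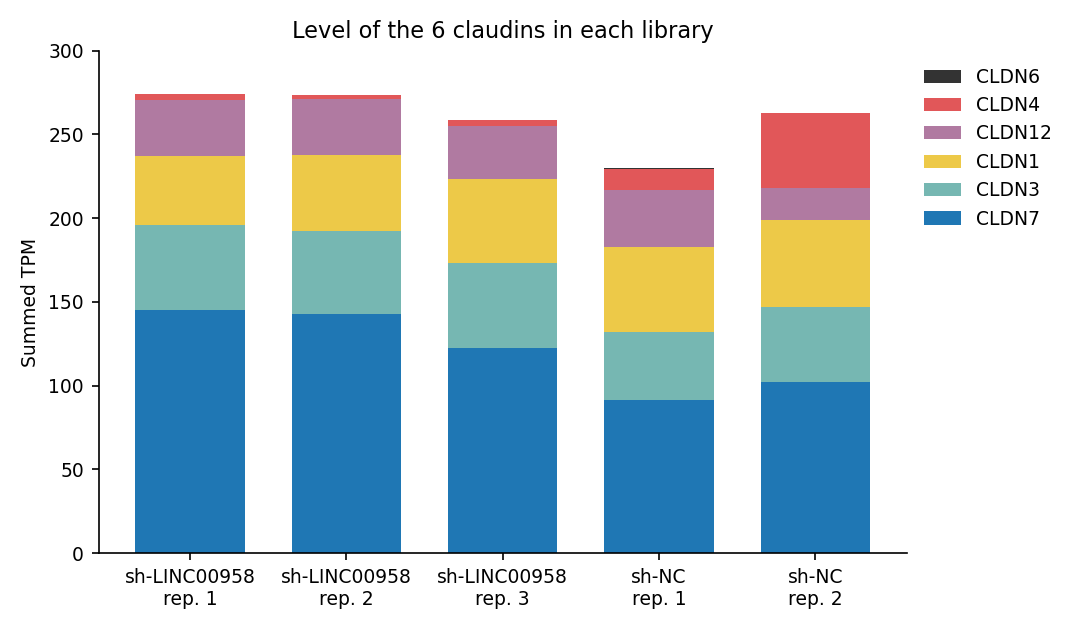
Stacked bars (vertical axis, summed TPM from 0) of the 6 claudins in each sh-LINC00958 and sh-NC library. CLDN7 (blue) is the largest part of every bar, and the CLDN4 part (red) is thin in the 3 sh-LINC00958 libraries and reaches 44.8 TPM in sh-NC replicate 2.

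Transcript GC content went along with the fold changes of all genes, and the junction genes span much of its range. Split into 4 bins of like size, tested genes had a median log2 fold change of -0.29 in the bin of lowest GC content (23.1% to 43%) and 0.18 in that of highest (56.4% to 86.4%). CLDN3 (69.2% GC), TJP3 (62.7%) and CLDN7 (58.8%) are in the highest bin and had positive log2 fold changes, as CLDN4 (57.4%) did not. CLDN1 (41.8%), CLDN12 (41.5%) and OCLN (40%) are in the lowest bin. After the trend of GC content and length was removed from each library, the log2 fold change of CLDN4 was -2.69 and still passed (limma adjusted p = 0.0428), in a setting with 5.03% of all genes called. That of CLDN7 shrank to 0.31 and did not pass (adjusted p = 0.157). CLDN3 went to 0.05 and TJP3 to 0.09, OCLN to 0.37 (adjusted p = 0.0660) and CLDN12 to 0.58 (adjusted p = 0.211), and the small log2 fold changes of CLDN1 and TJP1 turned to 0.053 and 0.029.

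**Figure D4:**
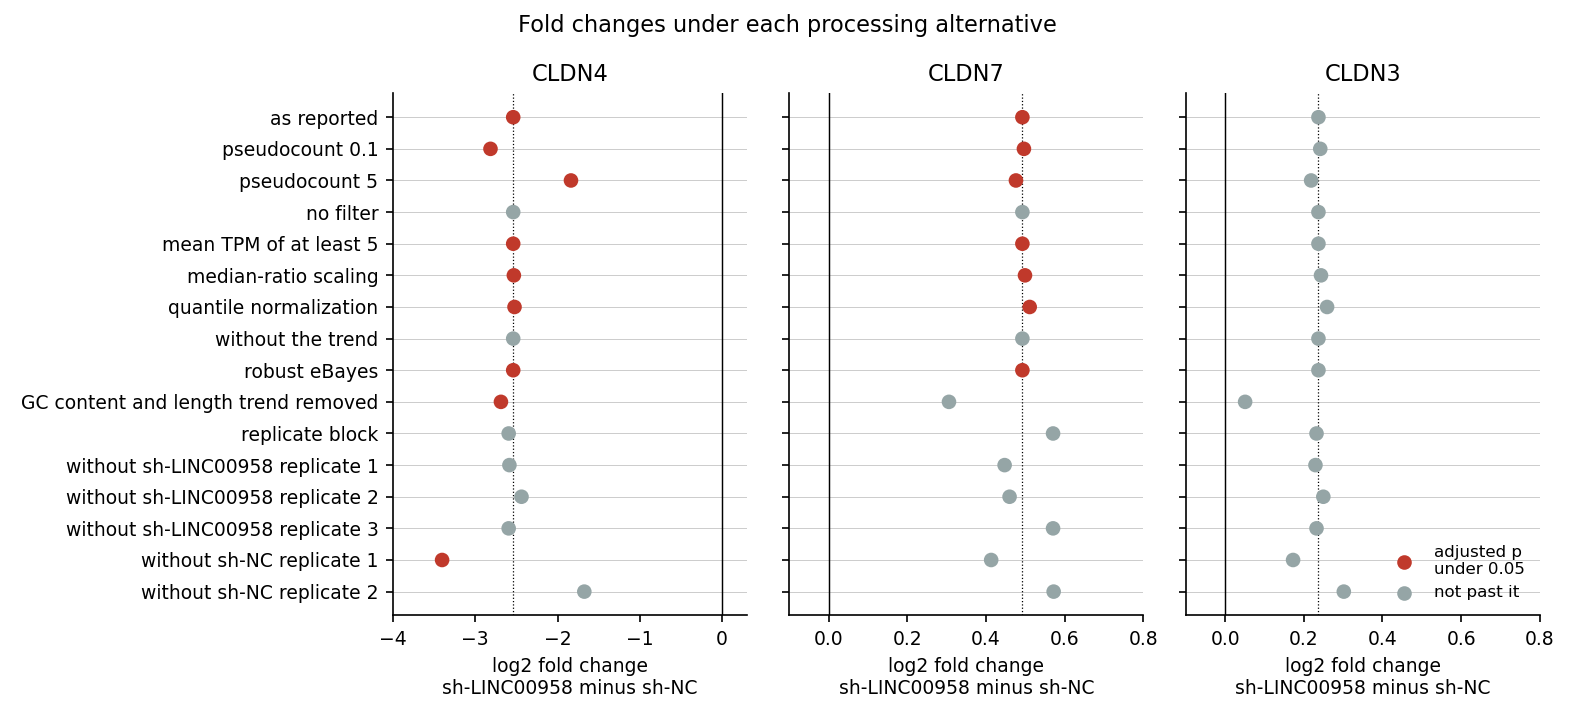
Log2 fold changes of CLDN4, CLDN7 and CLDN3 (horizontal axes, different scales) as reported (dotted line) and under each of 15 processing alternatives (rows), red where the limma adjusted p was under 0.05. CLDN4 lies between -3.40 and -1.68 and CLDN7 between 0.31 and 0.57 in all of them, while 8 and 6 of the alternatives kept the call.

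Other genes of the junction were read from the same fit, in lists of other claudins, other membrane proteins, other scaffolds, polarity proteins, adherens junction genes and regulators, 98 genes in all. Of the 76 tested, 3 rose, 6 fell and 67 did not pass, which is close to the background of 9.8%, and the median log2 fold change was 0.03. At an unadjusted p under 0.05 there were 32 of the 76, against 30.7% of all genes tested. The libraries of the groups did not overlap in 45 of the 76, against 49.9% of all genes tested. With GC and length trends taken out 1 was called higher and 3 lower, in a setting with 5.03% of all genes called. The 3 lower include NECTIN1, which was not called in the fit as reported (limma adjusted p = 0.0982). Among 19 other claudins and claudin-domain genes 7 were tested, and 0 rose or fell (4 at an unadjusted p under 0.05, against 30.7% of all genes tested). CLDN11, the claudin of myelin and of Sertoli cells, measured 6.03, 9.53 and 2.09 TPM in sh-LINC00958 and 17.6 and 15.3 TPM in sh-NC. It was lower in every sh-LINC00958 library but varied widely there, and did not pass (log2 fold change -1.51, limma adjusted p = 0.105). CLDN15, which forms cation channels in the gut, had a log2 fold change of 0.25 and CLDND1 one of -0.59, with limma adjusted p-values of 0.231 and 0.142. CLDN8, CLDN14, CLDN17, CLDN22 and CLDN25 were listed at 0 in all 5 libraries.

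Among 12 other membrane proteins 10 were tested, and CXADR fell. CXADR, the adhesion protein that serves as coxsackievirus and adenovirus receptor, was at 49.7 ± 4.30 TPM in sh-LINC00958 (SD, n = 3) against 73.8 ± 0.805 TPM in sh-NC (SD, n = 2). Its log2 fold change was -0.56 (limma adjusted p = 0.0288), and -0.30 and not called with GC and length trends taken out (adjusted p = 0.0660). LSR, which with MARVELD2 (tricellulin) marks the corners where 3 cells meet, had a log2 fold change of 0.26 and MARVELD2 one of -0.21, with limma adjusted p-values of 0.0889 and 0.174. None of 12 scaffolds tested passed in limma (4 at an unadjusted p under 0.05, against 30.7% of all genes tested). YBX3 and AMOTL2 were among the most abundant of that list, and their log2 fold changes were 0.12 and 0.41.

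Polarity genes, whose proteins place the junction at the apical edge, held 3 falls and 1 rise among 15 tested, where 5.68% of all genes were called lower and 4.12% higher. CDC42, the small GTPase that activates the PAR6 complex, fell to 162 ± 8.94 TPM in sh-LINC00958 (SD, n = 3) against 341 ± 8.58 TPM in sh-NC (SD, n = 2), with a log2 fold change of -1.07 ± 0.0767 (SE, limma adjusted p = 0.0056). PARD6B, a PAR6 protein, fell to 11.3 ± 0.951 TPM in sh-LINC00958 against 22.2 ± 0.936 TPM in sh-NC (log2 fold change -0.91). PRKCI, the atypical protein kinase C of the complex, fell to 29.1 ± 2.28 TPM in sh-LINC00958 against 55.9 ± 7.11 TPM in sh-NC (-0.91). LLGL2, a basolateral protein that opposes this complex, rose to 89.1 ± 3.94 TPM in sh-LINC00958 against 65.6 ± 1.80 TPM in sh-NC (0.43). With GC and length trends taken out CDC42 and PARD6B were still called (-0.89 and -0.65), and PRKCI and LLGL2 were not (-0.48 and 0.25). The falls also depended on the libraries used. Over all lists of other junction genes 6 were called lower as reported. That number was 1 without sh-LINC00958 replicate 1, 10 without replicate 2 and 1 without replicate 3. PARD3, PARD6A, PRKCZ and the other polarity genes did not pass, among them LIN7C, at 15.8 ± 5.46 TPM in sh-LINC00958 against 34.7 ± 1.37 TPM in sh-NC (limma adjusted p = 0.0539).

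**Figure D5:**
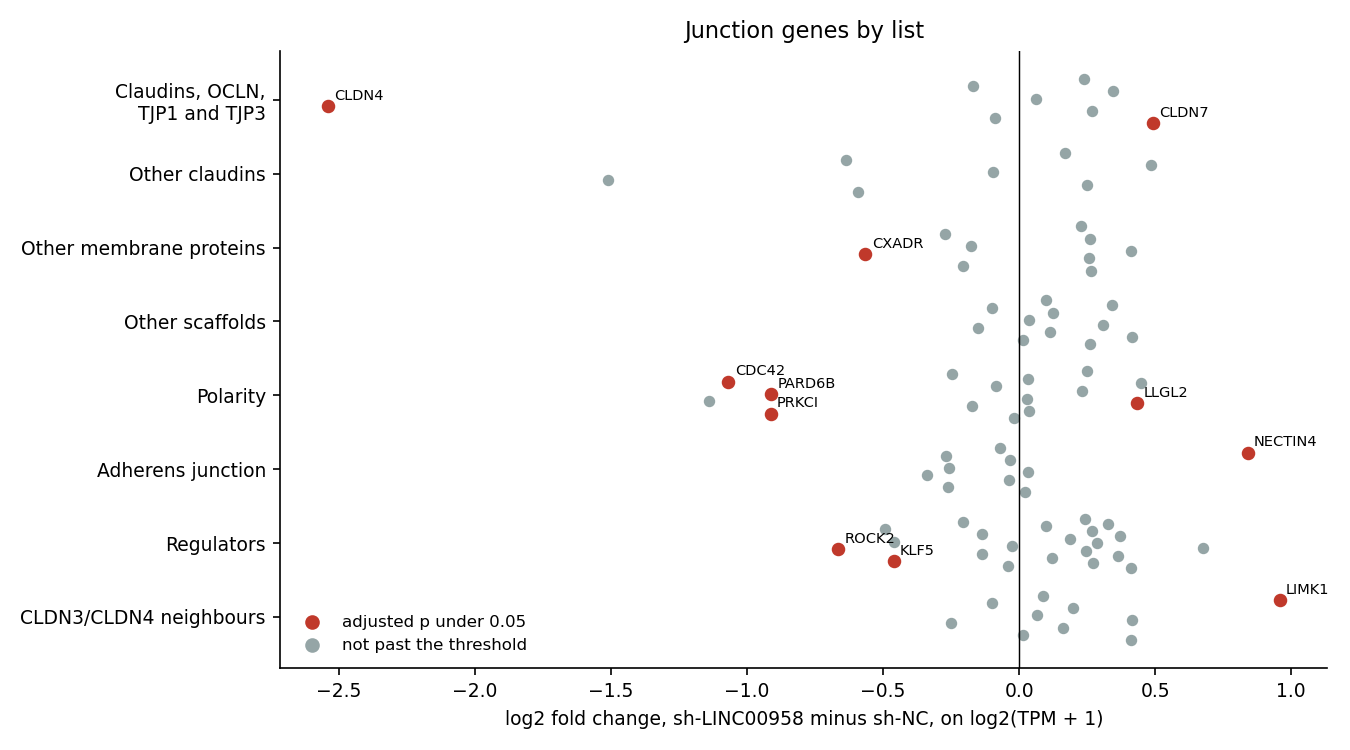
Log2 fold change (horizontal axis, sh-LINC00958 minus sh-NC) of the tested genes of each junction list that are reported (rows, spread vertically for legibility), red and named where the limma adjusted p was under 0.05. CLDN4 at -2.54 is the lowest point, LIMK1 at 0.96 the highest, and 3 of the named genes that fell are in the polarity row.

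Of 10 adherens junction genes 1 rose and 0 fell, where 4.12% of all genes were called higher and 5.68% lower. At an unadjusted p under 0.05 there were 3 of the 10 in either direction, against 30.7% of all genes tested. NECTIN4, a low-level nectin, rose to 2.61 ± 0.464 TPM in sh-LINC00958 (SD, n = 3) against 1.00 ± 0.0602 TPM in sh-NC (SD, n = 2), with a log2 fold change of 0.84 (limma adjusted p = 0.0418). With GC and length trends taken out it was not called (NECTIN4 adjusted p = 0.0740), where NECTIN1 was called lower (-0.51, adjusted p = 0.0418). The core genes CDH1 (E-cadherin), CTNNB1 and CTNNA1 had log2 fold changes of 0.03, -0.03 and -0.26. CDH1 itself was 99.4, 140 and 163 TPM in sh-LINC00958 against 120 and 137 TPM in sh-NC, overlapping groups. Of 22 regulators tested, 10 had an unadjusted p under 0.05 in either direction, against 30.7% of all genes tested. KLF5 and ROCK2 fell (-0.46 and -0.66, limma adjusted p = 0.0307 and 0.0376) and 0 rose, where 5.68% of all genes were called lower and 4.12% higher. With GC and length trends taken out neither passed. The grainyhead-like factor GRHL2, which is known in mice to bind and activate the CLDN4 gene, measured 35.8, 35.5 and 40.4 TPM in sh-LINC00958 and 28.5 and 30.5 TPM in sh-NC. That is higher in every sh-LINC00958 library, but it did not pass (log2 fold change 0.33, limma adjusted p = 0.0914). The part of GRHL2 in the CLDN4 values was not tested. ZEB1 measured 5.12, 3.53 and 4.91 TPM in sh-LINC00958 and 6.13 and 6.93 TPM in sh-NC (-0.46, adjusted p = 0.148), ZEB2 was at 0.0653 TPM in sh-LINC00958 replicate 2 and listed at 0 in the other libraries, and SNAI2 was listed at 0. The serine protease inhibitor genes SPINT1 and SPINT2 and the protease gene ST14, the most abundant of the list, had log2 fold changes of 0.12, 0.37 and 0.27 and did not pass.

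The genes whose log2 values followed CLDN4 most closely over the 5 libraries were PAQR3 (Pearson's r = 0.998), ENTPD3 and CACNB2 (0.997 each). PAQR3 measured 9.45, 8.06 and 9.63 TPM in sh-LINC00958 and 20.2 and 38.0 TPM in sh-NC, and fell (log2 fold change -1.52, limma adjusted p = 0.0281). Its sh-NC libraries differed in the same direction as those of CLDN4. ENTPD3 was between 1.64 and 1.74 TPM in sh-LINC00958 and at 2.10 and 2.48 TPM in sh-NC, and CACNB2 between 0.971 and 1.01 TPM in sh-LINC00958 and at 1.19 and 1.45 TPM in sh-NC. The closest to CLDN7 were DCTN2, CCDC130 and IRF2BP1 (r = 0.999, 0.998 and 0.998), of which CCDC130 rose (38.04 ± 3.10 TPM in sh-LINC00958 against 26.7 ± 2.67 TPM in sh-NC, limma adjusted p = 0.04995). With 5 points picked as the best of 17049 genes, these correlations are a description only.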

How the data were processed

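RNA-seq libraries of Ishikawa cells, 3 sh-LINC00958 and 2 sh-NC, were grouped by their titles. The authors deposited TPM values, 1 table with 1 column per library; FastQC 0.11.2, Trimmomatic 0.36, HISAT2 2.0, StringTie 1.3.3b and GRCh38 are named in the submitters' processing notes. Their order, the annotation and the strand setting were not given. TPM keeps no read total, so depth is unknown and no counting interval can be given. From these values log2(TPM + 1) was fitted with limma 3.58.1 in R 4.3.3 (mean-variance trend, two-sided, no covariate) over genes with a mean TPM of at least 1. The fit was tested on simulated data. An exact permutation test of 3 against 2 libraries cannot give a p below 0.1, so none is reported. Coordinates, exon length and GC content came from GENCODE release 29, and promoters from RefSeq. The genes, lists and tests were chosen with earlier results of these data known. Named genes are the 9 junction genes, called and most abundant genes of each list (some are not reported here), all listed CLDN3 and CLDN4 neighbours, and the 3 most correlated genes per called member; MARVELD2, LIN7C, PARD3, PARD6A, PRKCZ, NECTIN1, GRHL2, ZEB1, ZEB2, SNAI2 and the genes overlapping members were picked after their values were seen. Alternatives were other pseudocounts, filters, scalings and variance models, removal of GC and length trends, a replicate block and leaving out each library.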

Additional observations from a re-analysis of the deposited data

How the results depend on the processing

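Robust eBayes, quantile normalization, median-ratio scaling, pseudocounts of 0.1 and 5 and a filter at a mean of 5 TPM left CLDN7 called higher and CLDN4 called lower. The cause was not tested for any change that follows. Calls higher and lower among the junction genes, against 1 and 1 as reported, were 0 and 0 in limma without a filter, without the mean-variance trend and with the replicate block (2 and 2, 1 and 1, and 1 and 1 at an unadjusted p under 0.05). With the GC content and length trend removed 0 were higher and 1 was lower (2 and 1 at an unadjusted p under 0.05). Leaving out 1 library gave 0 higher in every case and 0 to 1 lower. Over all genes, against 702 higher and 969 lower, there were 207 and 269 without a filter, 371 and 518 without the trend, 413 and 445 with the GC and length trend removed, 0 and 2 with the replicate block (2000 higher at an unadjusted p under 0.05), and 10 to 904 and 6 to 1486 with 1 library left out. Among other junction genes, against 3 higher and 6 lower, there were 1 and 3 without a filter, 2 and 3 without the trend, 1 and 3 with the GC and length trend removed, 0 and 0 with the replicate block (11 and 11 at an unadjusted p under 0.05), and 0 to 4 and 0 to 10 with 1 library left out. Where 1 sh-NC library was left, it was assumed to vary like the other group. The sign turned for CLDN1 (0.053) and TJP1 (0.029) with the GC and length trend removed, for CLDN12 without sh-NC replicate 2 (-0.046 to 0.733 over all libraries left out) and for OCLN without sh-NC replicate 1 (-0.019 to 0.14), and none of these was called in either setting. The labels do not say that replicate numbers pair the libraries. Same-numbered libraries did not deviate together (correlations of 0.0013 and 0.0497 for numbers 1 and 2). A block leaves little residual information, so a call lost there, that of LINC00958 included (adjusted p = 0.104 in limma), does not by itself mean a weaker effect. With the block the log2 fold changes were -0.92 for LINC00958, -2.59 for CLDN4 and 0.57 for CLDN7. These equal the values without sh-LINC00958 replicate 3, which has no sh-NC library of its number and so adds nothing to the blocked estimate. The 5 libraries, 2 of them controls, limit what can be resolved, and depth is unknown.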
